A study of Mus musculus with 16 samples.

Results

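Genes of the Wnt and Notch signalling pathways were followed through dimethylation of histone H3 at lysine 4 (H3K4me2) in sorted medullary thymic epithelial cells (mTEC) of the mouse. The members were taken by gene symbol: Wnt ligands, Frizzled and Lrp receptors, R-spondins and Lgr receptors, the Sfrp and Dkk inhibitors, Axin, the TCF and LEF factors, Notch receptors, their Delta-like and Jagged ligands, and the Hes and Hey repressors. They took 164 of 29472 merged H3K4me2 peaks and 65 of 15739 annotated genes, each peak being assigned by the authors to the gene with the nearest start site. All 164 peaks and all 65 genes passed the filter on low values. Lgr6, which the rule would also take, had no peak in the table used here, and the groups below count only genes with a peak.

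The study sorted cells from the thymus of C57BL/6 mice into 4 populations and made 2 H3K4me2 libraries from each by chromatin immunoprecipitation and sequencing. Every population was CD45- and Epcam+, that is, without the blood cell marker and with the epithelial one. The further gates were low MHC class II with Itgb4 for mTEC-I, high MHC class II for mTEC-II, Ly6D for mTEC-III, and low MHC class II with L1cam but without Itgb4 for mTEC-IV. The labels call these cells enriched for each population, name no genotype or treatment that differs between them and give no age. The 8 whole-cell extracts of the series were not analysed here. No label ties the libraries to individual animals, and the p-values therefore cover the spread between libraries alone, which may be technical.

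Wnt ligands bind Frizzled and Lrp receptors and, in the canonical branch, stabilise beta-catenin, which then acts with TCF and LEF factors on DNA. R-spondins raise this signal through Lgr receptors, whereas Dkk and Sfrp proteins block it outside the cell. Notch receptors are cut after they meet a Delta-like or Jagged ligand on a neighbouring cell. The freed part binds RBPJ and turns on some of the Hes and Hey repressors. In the thymus, Wnt signals bear on the epithelium itself, and Dll4 on epithelial cells instructs incoming progenitors to become T cells. H3K4me2 marks promoters and enhancers, so a level here describes chromatin and not RNA.

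The libraries held between 1702103.5 and 15412132.5 tags, of which 31.9% to 35.4% lay in peaks. The second mTEC-I library was the shallowest, and 3 tags there were worth 17.6 tags per 10000000 against 1.95 to 4.64 in the other libraries. Over all peaks, the log2 difference between the 2 libraries of a population had an SD of 0.835 in mTEC-I and of 0.264 to 0.385 in the others. Of 9 thymic epithelial genes, 8 had peaks, and Aire had none in the table used here. In mTEC-IV, Foxn1, Krt5, Krt14, Trp63 and Psmb11 were lower and Epcam, Krt8 and Cdh1 higher (limma adjusted p under 0.05). Foxn1 had 175 and 185 there and 413 to 609 in the other libraries. Krt8 had 1108.5 and 1198 there and 499 to 608 in the other libraries. Of 13 thymocyte genes, Cd2, Themis and Bcl11b had peaks, while Cd3d, Cd3e, Cd3g, Cd4, Cd8a, Cd8b1, Lck, Ptcra, Rag1 and Rag2 had none in that table. The summed level of 6 of 7 tuft cell genes was 4912 to 5024 tags per 10000000 in mTEC-IV and 949 to 1136 elsewhere, with no peak at Chat. Endothelial genes, 7 of 8 with peaks and none at Tie1, summed to 1437 to 1463 in mTEC-IV, 757 to 769.7 in mTEC-I, 876 to 899 in mTEC-II and 656 to 776 in mTEC-III. Fibroblast genes, 7 of 10 with peaks and none at Col1a2, Col3a1 or Lum, summed to 825 to 987 in mTEC-I, 483 to 489 in mTEC-II, 298 to 338 in mTEC-III and 524 to 547 in mTEC-IV. Of 8 genes of haematopoietic antigen-presenting cells, 6 had peaks, and they summed to 297 to 316 in mTEC-IV, 133.9 to 149.8 in mTEC-I, 228 to 229 in mTEC-II and 231 to 238 in mTEC-III. Their directions differed: Cd79a, Cd79b and Flt3 were higher in mTEC-IV (limma adjusted p under 0.05). By the same threshold Itgax and Itgam were lower in mTEC-IV and higher in mTEC-III. Ptprc, the gene of the CD45 marker that the sort gated out, had 269 and 265 in mTEC-IV and 30.03 to 48.9 in the other libraries. Its change in mTEC-IV was 2.84 ± 0.18 (SE, limma adjusted p = 4.87e-09) on the log2(level + 1) scale. The part of these other cell types in the results was not tested, except where stated. In sorted bulk cells a larger share of marked cells and more mark per cell cannot be told apart.

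The promoters of 42 of the 65 genes were found in RefSeq's table for the assembly GRCm38.p6. All peak coordinates given further on are in mm9, another assembly, and the windows were not set against the peaks by position. The 250 bases before the start are shown for 5 genes whose peak over the start carries a difference described further on, and for Hes5, a textbook target of Notch, added after its motif matches were seen. Capitals mark a match to the RBPJ motif, TGGGAA or, on the other strand, TTCCCA.
Wnt2, chr6:18030446-18030695, minus strand: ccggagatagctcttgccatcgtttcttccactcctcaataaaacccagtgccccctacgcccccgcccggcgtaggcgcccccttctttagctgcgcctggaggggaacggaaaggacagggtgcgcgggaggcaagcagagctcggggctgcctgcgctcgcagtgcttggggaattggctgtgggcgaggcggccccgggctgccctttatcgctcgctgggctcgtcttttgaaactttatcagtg
Wnt3, chr11:103773925-103774174, plus strand: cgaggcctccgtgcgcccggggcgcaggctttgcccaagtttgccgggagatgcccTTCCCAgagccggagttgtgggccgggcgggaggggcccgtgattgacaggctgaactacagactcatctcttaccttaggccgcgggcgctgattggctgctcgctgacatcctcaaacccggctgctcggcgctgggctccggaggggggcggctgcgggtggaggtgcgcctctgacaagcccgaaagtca
Wnt4, chr4:137277385-137277634, plus strand: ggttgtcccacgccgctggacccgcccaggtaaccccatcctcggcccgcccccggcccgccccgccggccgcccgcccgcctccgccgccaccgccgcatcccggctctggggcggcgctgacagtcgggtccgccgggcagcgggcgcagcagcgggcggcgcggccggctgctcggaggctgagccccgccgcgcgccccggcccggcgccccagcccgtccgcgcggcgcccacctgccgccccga
Notch2, chr3:98013288-98013537, plus strand: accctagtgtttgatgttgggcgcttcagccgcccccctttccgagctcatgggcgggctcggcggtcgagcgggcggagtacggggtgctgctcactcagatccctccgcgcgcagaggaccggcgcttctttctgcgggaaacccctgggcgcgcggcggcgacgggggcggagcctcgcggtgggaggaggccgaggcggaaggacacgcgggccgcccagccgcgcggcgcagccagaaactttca
Jag2, chr12:112929496-112929745, minus strand: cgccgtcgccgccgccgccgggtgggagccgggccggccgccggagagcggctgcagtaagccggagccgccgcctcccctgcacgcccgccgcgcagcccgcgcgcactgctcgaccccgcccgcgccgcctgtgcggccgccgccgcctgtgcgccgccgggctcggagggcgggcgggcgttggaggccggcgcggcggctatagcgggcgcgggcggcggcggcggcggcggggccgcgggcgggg
Hes5, chr4:154960673-154960922, plus strand: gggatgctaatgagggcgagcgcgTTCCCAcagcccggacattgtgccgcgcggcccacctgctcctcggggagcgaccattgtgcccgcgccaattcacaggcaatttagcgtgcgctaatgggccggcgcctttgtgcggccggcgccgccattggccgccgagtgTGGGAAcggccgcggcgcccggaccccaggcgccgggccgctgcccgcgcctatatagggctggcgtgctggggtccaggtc
These windows are rich in G and C, from 63.6% in Wnt2 to 87.2% in Jag2, with a median of 66.4% over the windows of all members. The Hes5 window held an RBPJ match on each strand, with first bases at -226 and -82 from the start, and the Wnt3 window held 1 at -194. Over the members, 7 of 52 windows held the RBPJ motif, in Hes5, Hes7, Hey2, Tcf7l1, Wnt3, Wnt5b and Wnt9a, against 21.6% of the 32536 windows of all genes. The motif of TCF and LEF, ATCAAAG or CTTTGAT, lay in 2 member windows, of Wnt11 and Wnt5b, against 3.21% of all windows. The motifs do not overlap each other, and a match describes letters, not binding.

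Levels were summed over the peaks of a gene, in tags per 10000000, and each population was set against the other 3, averaged, on the scale log2(level + 1). A change is called where limma's p, adjusted over all 15738 genes, is under 0.05, and folds of low genes are understated on this scale. Among the 65 genes, 47 differed between the 4 populations by the F test, against 54.2% of all genes. In mTEC-I, 23 members were higher and 6 lower, against 17.2% and 17.7% of all genes. In mTEC-II, 10 were higher and 8 lower, against 8.56% and 11.2%. In mTEC-III, 5 were higher and 27 lower, against 12.1% and 16.7%. In mTEC-IV, 13 were higher and 11 lower, against 20.4% and 12.6%. The median change of the members was 0.13 in mTEC-I, 0.02 in mTEC-II, -0.17 in mTEC-III and 0.03 in mTEC-IV. Over all genes it was 0.04, -0.09, 0.01 and 0.02. The balance in mTEC-II and mTEC-IV moved with the scaling. The share of higher genes among the members called was 55.6% in mTEC-II and became 75% with RLE size factors, 87.5% with equal totals in peaks and 80% in edgeR with TMM. It was 54.2% in mTEC-IV and became 32.3% with equal totals in peaks and 44% with peaks within 20 kb of a start alone. There the median of the members was -0.07 and -0.0007, and that of all genes -0.08 and 0.003. In mTEC-II the median of all genes moved as well, to -0.04 with RLE size factors, -0.004 with equal totals and -0.006 in edgeR. That of the members moved to 0.06, 0.10 and 0.11. The shares of all genes called under these settings are not given here.

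Several of these counts moved when 1 library was left out, which leaves its population with 1 and also changes the shared estimate of the spread. Without either mTEC-II library 2 members were higher and 1 lower in mTEC-II, and without either mTEC-I library 22 were higher there. The count lower in mTEC-II was 16 without mTEC-I replicate 2, 3 without mTEC-III replicate 2, 5 without mTEC-IV replicate 1 and 4 without mTEC-IV replicate 2. Without mTEC-I replicate 1, 11 members were lower in mTEC-I, 8 higher in mTEC-III and 17 lower in mTEC-IV, and without mTEC-I replicate 2, 9 were higher in mTEC-III. The count lower in mTEC-III was 14 without mTEC-III replicate 1, and the count higher in mTEC-IV was 7 without mTEC-IV replicate 2. Of the 103 called changes, 52 held under every alternative run, 19 of 29 in mTEC-I, 2 of 18 in mTEC-II, 17 of 32 in mTEC-III and 14 of 24 in mTEC-IV. Both libraries lay above the 6 others in 17 genes for mTEC-I, 7 for mTEC-II, 6 for mTEC-III and 9 for mTEC-IV, against 14.7%, 6.57%, 11.5% and 18.4% of all genes. They lay below the 6 others in 4, 6, 18 and 9 genes, against 11.2%, 12%, 12.3% and 10.1%.

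**Figure D1:**
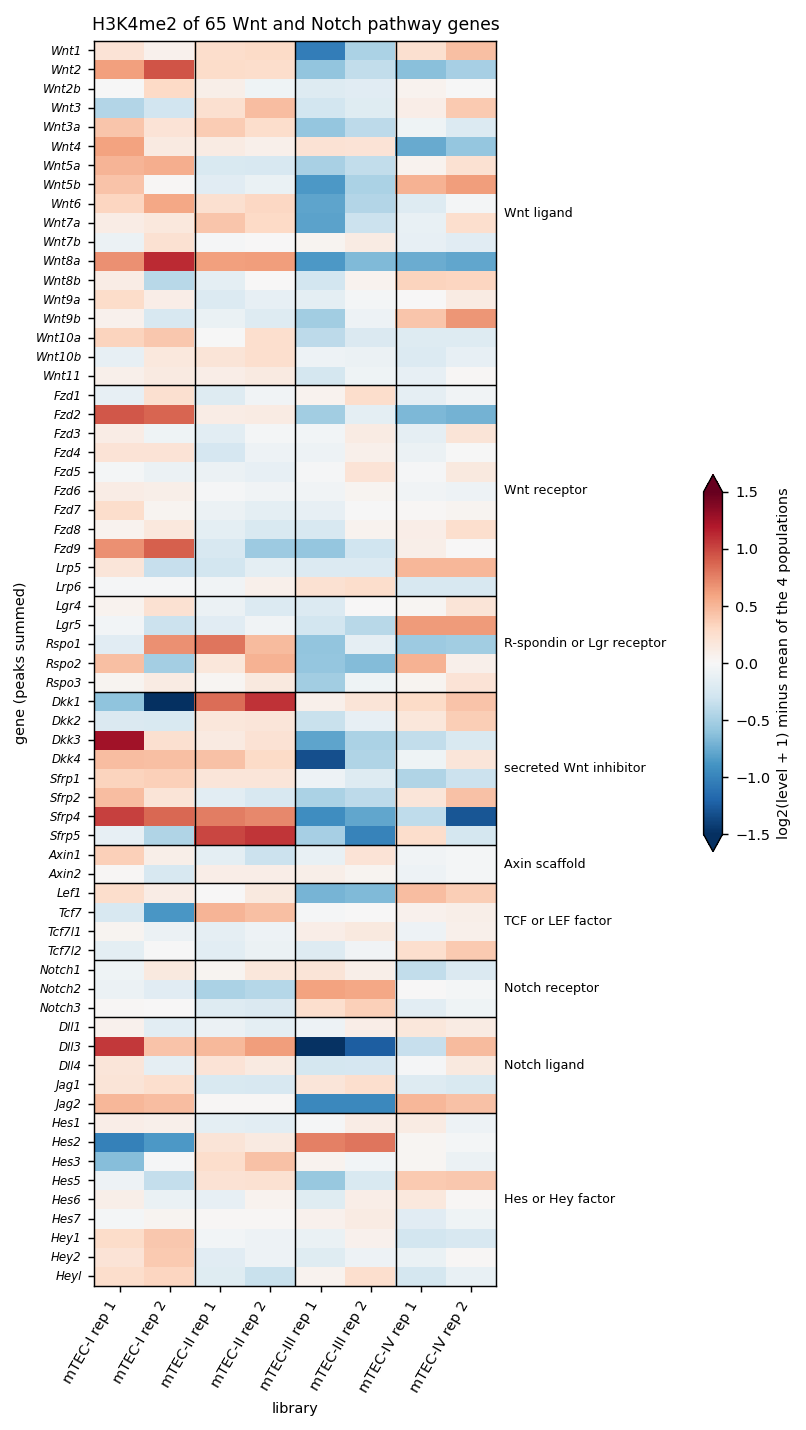
Each row is one of the 65 genes, grouped by role, and each column one of the 8 H3K4me2 libraries; colour gives log2(level + 1) minus the mean of the 4 population means, with colours saturating at 1.5. Blue cells gather in the mTEC-III columns of the Wnt ligands and secreted inhibitors, where 11 of 18 and 6 of 8 genes were called lower. Not all of these calls held in every alternative run.

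The Wnt ligands made up 18 genes with 46 peaks, of which 14 differed between populations by the F test, against 54.2% of all genes. The shares of all genes called in each population, given above, also apply to the counts of this group and those that follow. In mTEC-III none was higher and 11 were lower, among them Wnt1, Wnt3a, Wnt5a, Wnt5b, Wnt6, Wnt8a and Wnt10a, whose calls held in every alternative run. In mTEC-I 7 were higher and 1 lower, in mTEC-II 5 and 1, and in mTEC-IV 4 and 4. By mean level, 10 of the 18 were lowest in mTEC-III and 8 were highest in mTEC-I.

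Wnt5a, a ligand best known for signalling without beta-catenin, had 686 and 705 from mTEC-I, 413 and 409 from mTEC-II, 346 and 373 from mTEC-III, and 499.8 and 567 from mTEC-IV. Both mTEC-I libraries lay above the rest and mTEC-IV came next, with no overlap between the populations. The change was 0.70 ± 0.07 (SE, limma adjusted p = 1.86e-06) in mTEC-I, -0.57 ± 0.07 (SE, limma adjusted p = 2.33e-05) in mTEC-III and -0.31 ± 0.07 (SE, limma adjusted p = 0.0057) in mTEC-II. The last was lost without a library of that population, with adjusted p = 0.0964 without mTEC-II replicate 1 and adjusted p = 0.111 without mTEC-II replicate 2. Most of the signal came from 1 peak at chr14:29317041-29325560 (mm9) over the start, annotated to an intron of Wnt5a, with 656 and 682 from mTEC-I, 382 and 375 from mTEC-II, 324 and 346 from mTEC-III, and 427 and 483 from mTEC-IV. In this peak the mTEC-I change was 0.79 ± 0.07 (SE, limma adjusted p = 1.21e-05). A second peak, -130 kb from the start and inside Erc2, showed another order, with 6.19 and 5.88 from mTEC-I, 6.16 and 10.7 from mTEC-II, 8.83 and 2.94 from mTEC-III, and 39.04 and 47.8 from mTEC-IV. There only mTEC-IV stood apart, by 2.58 ± 0.47 (SE, limma adjusted p = 0.00102).

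Wnt2, a canonical ligand of the lung and placenta among other organs, had 1 peak over its start at chr6:17979717-17983318, with 188 and 235 from mTEC-I, 148 and 147 from mTEC-II, 80.8 and 94.2 from mTEC-III, and 78.6 and 86.03 from mTEC-IV. The mTEC-I libraries were highest and those of mTEC-III and mTEC-IV overlapped at the low end. The change was 1.04 ± 0.13 (SE, limma adjusted p = 1.83e-05) in mTEC-I and -0.75 ± 0.13 (SE, limma adjusted p = 2.93e-04) in mTEC-IV. The promoter window of this gene, shown above, held neither motif. Wnt8a, a ligand of the early embryo, had 199 and 267 from mTEC-I, 189 and 189.9 from mTEC-II, 67.5 and 77.1 from mTEC-III, and 73.1 and 71.1 from mTEC-IV. Its libraries split into a high pair of populations, mTEC-I and mTEC-II, and a low pair, mTEC-III and mTEC-IV, with no overlap between the pairs. The changes were 1.20 ± 0.13 (SE, limma adjusted p = 5.52e-06) in mTEC-I, 0.83 ± 0.13 (SE, limma adjusted p = 5.60e-04) in mTEC-II, -1.01 ± 0.13 (SE, limma adjusted p = 4.36e-05) in mTEC-III and -1.02 ± 0.13 (SE, limma adjusted p = 2.17e-05) in mTEC-IV. The larger of its 2 peaks, at chr18:34690447-34693657 and intergenic, -9.93 kb from the start, carried 170.2 and 217 from mTEC-I, 157 and 149 from mTEC-II, 44.8 and 58.3 from mTEC-III, and 29.7 and 35.9 from mTEC-IV. Its mTEC-IV change was -1.78 ± 0.16 (SE, limma adjusted p = 8.22e-06). The summed fibroblast markers were also highest in mTEC-I, where 5 of 7 were called higher and Pdgfrb lower, and their part in the level of Wnt2 and Wnt5a was not tested.

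Wnt4, a ligand expressed by thymic epithelium and known to act on Foxn1 there, had 449 and 326 from mTEC-I, 322 and 311 from mTEC-II, 343 and 341 from mTEC-III, and 174 and 197 from mTEC-IV. Both mTEC-IV libraries lay below the rest, while mTEC-III lay within the range of mTEC-I, and mTEC-II just under it. The change in mTEC-IV was -0.90 ± 0.11 (SE, limma adjusted p = 6.43e-06). In mTEC-I it was 0.49 (limma adjusted p = 0.00202), and 0.26 without mTEC-I replicate 1. The peak over the start at chr4:136831626-136836760 had 337 and 206 from mTEC-I, 258 and 256 from mTEC-II, 254 and 261 from mTEC-III, and 157 and 178 from mTEC-IV. The peak 4.88 kb from the start at chr4:136837155-136839707, in the same gene's introns, had 111 and 120.4 from mTEC-I, 64.2 and 55.2 from mTEC-II, 89.6 and 80.7 from mTEC-III, and 17.04 and 19.1 from mTEC-IV, and there the mTEC-IV change was -2.15 ± 0.17 (SE, limma adjusted p = 2.63e-06). In that intronic peak mTEC-I was the highest population and mTEC-IV lay far below every other library.

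Wnt5b, a close relative of Wnt5a, showed another order, with 395 and 297 from mTEC-I, 262 and 275 from mTEC-II, 161 and 212 from mTEC-III, and 423 and 456 from mTEC-IV. mTEC-IV was highest and mTEC-III lowest, both outside the range of the other libraries. The change was 0.77 ± 0.12 (SE, limma adjusted p = 7.51e-05) in mTEC-IV and -0.89 ± 0.12 (SE, limma adjusted p = 3.64e-05) in mTEC-III. Its 4 peaks did not move together. The peak at chr6:119398718-119403193, -1.55 kb from an annotated start and inside a Wnt5b intron, had 167 and 123 from mTEC-I, 101 and 98.5 from mTEC-II, 50.5 and 61.8 from mTEC-III, and 265 and 289 from mTEC-IV. It rose in mTEC-IV by 1.56 ± 0.14 (SE, limma adjusted p = 7.32e-06) and its mTEC-III change was -1.49 ± 0.14 (SE, limma adjusted p = 4.02e-05). The peak 8.28 kb from the start was instead lowest in mTEC-IV, with 58.8 and 58.8 from mTEC-I, 29.5 and 34.8 from mTEC-II, 37.9 and 46.5 from mTEC-III, and 11 and 17.3 from mTEC-IV. Wnt3, a canonical ligand, had 195 and 217 from mTEC-I, 312 and 365 from mTEC-II, 218 and 233 from mTEC-III, and 283 and 348 from mTEC-IV. mTEC-I lay lowest with mTEC-III just above it, and mTEC-II and mTEC-IV overlapped at the high end. The change was 0.46 ± 0.10 (SE, limma adjusted p = 0.00461) in mTEC-II and -0.48 ± 0.10 (SE, limma adjusted p = 0.00162) in mTEC-I. The mTEC-II call was lost once, with adjusted p = 0.183 without mTEC-II replicate 2, and for mTEC-I there was a change of -0.77 and adjusted p = 4.21e-04 with peaks within 20 kb alone. Over the start of Wnt3, whose window holds an RBPJ match, the peak at chr11:103632962-103637058 had 80.5 and 112 from mTEC-I, 187 and 186 from mTEC-II, 117 and 121 from mTEC-III, and 174 and 218 from mTEC-IV.

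Several ligand genes lie side by side, and neighbours did not share a pattern throughout. Wnt6 and Wnt10a, next to each other on chromosome 1, were both called higher in mTEC-I and lower in mTEC-III. A peak summed into Wnt10a, -7.67 kb from its start, lay inside Wnt6, so the levels of these neighbours are not fully separate. Wnt6 had 167 and 199.8 from mTEC-I, 157 and 166 from mTEC-II, 76.3 and 98.3 from mTEC-III, and 117 and 130.2 from mTEC-IV, and Wnt10a had 823 and 867 from mTEC-I, 654 and 782 from mTEC-II, 500.2 and 565 from mTEC-III, and 572 and 571 from mTEC-IV. On chromosome 15, Wnt1 was called lower in mTEC-III, with 68.1 and 61.7 from mTEC-I, 71.4 and 72.2 from mTEC-II, 28.4 and 42.4 from mTEC-III, and 69.8 and 81.2 from mTEC-IV. Its neighbour Wnt10b had 228 and 276 from mTEC-I, 285 and 295 from mTEC-II, 235 and 233 from mTEC-III, and 214 and 228 from mTEC-IV, and its mTEC-III libraries lay within the range of mTEC-I. Wnt9b, beside Wnt3 on chromosome 11, had 98.3 and 79.3 from mTEC-I, 87.9 and 82.2 from mTEC-II, 64.98 and 88.9 from mTEC-III, and 125 and 149 from mTEC-IV, with mTEC-IV above the rest and a call there that was lost with adjusted p = 0.088 without mTEC-IV replicate 2. Wnt3a was called lower in mTEC-III, while its neighbour Wnt9a did not pass the F test (limma adjusted p = 0.0701). The levels of Wnt3a were 219.8 and 191 from mTEC-I, 214 and 198 from mTEC-II, 109.8 and 125 from mTEC-III, and 157 and 143 from mTEC-IV. Of the remaining ligands, Wnt2b, Wnt7b and Wnt8b did not pass the F test.

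The Wnt receptors, 11 genes with 24 peaks, had 7 that passed the F test, against 54.2% of all genes. In mTEC-I 4 were higher and none lower, in mTEC-II none higher and 2 lower, in mTEC-III 1 higher and 2 lower, and in mTEC-IV 2 higher and 2 lower. Fzd2, a Frizzled receptor, had the largest change among them, with 467 and 447 from mTEC-I, 264 and 266 from mTEC-II, 169 and 219 from mTEC-III, and 153 and 149 from mTEC-IV. Its levels fell in order from mTEC-I through mTEC-II and mTEC-III to mTEC-IV without overlap. Its only peak, at chr11:102463918-102469422, lay over the start in the gene's exon. The change was 1.20 ± 0.10 (SE, limma adjusted p = 2.87e-07) in mTEC-I and -0.92 ± 0.10 (SE, limma adjusted p = 2.98e-06) in mTEC-IV. Fzd9 had 125 and 144 from mTEC-I, 64.9 and 52.6 from mTEC-II, 51.1 and 62.4 from mTEC-III, and 81.9 and 77.1 from mTEC-IV. The mTEC-I libraries stood highest, while mTEC-II and mTEC-III overlapped at the low end. The change was 1.05 ± 0.16 (SE, limma adjusted p = 1.26e-04) in mTEC-I and -0.52 ± 0.16 (SE, limma adjusted p = 0.0333) in mTEC-II. The mTEC-II call was lost with adjusted p = 0.0631 with equal totals in peaks, adjusted p = 0.117 without mTEC-II replicate 1, adjusted p = 0.401 without mTEC-II replicate 2, adjusted p = 0.0693 without mTEC-III replicate 2, adjusted p = 0.0748 without mTEC-IV replicate 1 and adjusted p = 0.0614 without mTEC-IV replicate 2.

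Lrp5 and Lrp6, the co-receptors that carry the canonical signal with Frizzled, differed in opposite populations. Lrp5 had 312 and 217 from mTEC-I, 228 and 248 from mTEC-II, 239.7 and 238 from mTEC-III, and 389 and 389.5 from mTEC-IV, and both mTEC-IV libraries lay above the rest. The change in mTEC-IV was 0.66 ± 0.11 (SE, limma adjusted p = 2.21e-04). Only the intronic peak 17.2 kb from the start was called higher there. That peak had 86.7 and 64.6 from mTEC-I, 38.9 and 49.6 from mTEC-II, 51.7 and 54.2 from mTEC-III, and 145 and 167 from mTEC-IV, while the peak over the start did not pass the F test. Lrp6 had 286 and 288 from mTEC-I, 279 and 307 from mTEC-II, 342 and 350.3 from mTEC-III, and 247 and 246 from mTEC-IV, with mTEC-III highest and mTEC-IV lowest. The change was 0.33 ± 0.08 (SE, limma adjusted p = 0.00494) in mTEC-III and -0.32 ± 0.08 (SE, limma adjusted p = 0.00537) in mTEC-IV. These calls were lost without 1 library, with adjusted p = 0.0566 without mTEC-III replicate 2 for mTEC-III and with adjusted p = 0.0578 without mTEC-IV replicate 1 and adjusted p = 0.0681 without mTEC-IV replicate 2 for mTEC-IV. Fzd1, Fzd3, Fzd5 and Fzd6 did not pass the F test. The far peak of Fzd8, -244 kb from its start, nonetheless had 6.96 and 0 from mTEC-I, 9.73 and 2.22 from mTEC-II, 3.78 and 3.53 from mTEC-III, and 78.1 and 90.8 from mTEC-IV, so that mTEC-IV exceeded every other library. For Fzd8 as a gene, the mTEC-IV call reversed when peaks over 20 kb were left out, and its summed level was 637 and 684 from mTEC-I, 552 and 523 from mTEC-II, 517 and 638 from mTEC-III, and 657 and 728 from mTEC-IV.

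R-spondins and their Lgr receptors were 5 genes with 9 peaks, of which 3 passed the F test, against 54.2% of all genes. In mTEC-III 3 were lower and none higher, in mTEC-IV 1 was higher and none lower, and none was called in mTEC-I or mTEC-II. Lgr5, an R-spondin receptor that marks stem cells of the gut and other epithelia, had 259 and 214 from mTEC-I, 238 and 258 from mTEC-II, 220.2 and 201 from mTEC-III, and 418 and 419 from mTEC-IV. Both mTEC-IV libraries lay above the rest, and mTEC-I overlapped both mTEC-II and mTEC-III. The change in mTEC-IV was 0.86 ± 0.09 (SE, limma adjusted p = 2.79e-06). In mTEC-III it was -0.46 (limma adjusted p = 0.00137). Both of its peaks were raised, the one at chr10:115022564-115026133 over the start with 155 and 118 from mTEC-I, 135 and 144 from mTEC-II, 95.3 and 89.5 from mTEC-III, and 219.9 and 237 from mTEC-IV, and the intergenic one -77.5 kb away with 104 and 96.9 from mTEC-I, 103 and 113 from mTEC-II, 125 and 111 from mTEC-III, and 198 and 182 from mTEC-IV. Lgr4, a related receptor, did not pass the F test as a gene, with 382 and 429 from mTEC-I, 345 and 318 from mTEC-II, 317 and 367 from mTEC-III, and 376 and 420.0 from mTEC-IV. One intronic peak of it at chr2:109790572-109791840, 33.4 kb from the start, was low outside mTEC-IV, with 9.29 and 11.8 from mTEC-I, 7.79 and 9.26 from mTEC-II, 5.05 and 7.07 from mTEC-III, and 76.98 and 77.7 from mTEC-IV. It rose in mTEC-IV by 3.10 ± 0.35 (SE, limma adjusted p = 3.73e-05). Of the R-spondins, which are secreted, Rspo2 had 81.2 and 41.1 from mTEC-I, 66.5 and 84.8 from mTEC-II, 39.1 and 37.1 from mTEC-III, and 85.2 and 62.1 from mTEC-IV, and its call as lower in mTEC-III was lost with adjusted p = 0.115 without mTEC-III replicate 1 and adjusted p = 0.133 without mTEC-III replicate 2. Rspo3 had 171 and 182 from mTEC-I, 169 and 184 from mTEC-II, 116 and 159 from mTEC-III, and 172 and 192 from mTEC-IV and missed the F test (limma adjusted p = 0.0787). It was nonetheless called lower in mTEC-III, by -0.39 (limma adjusted p = 0.0268), and this call did not hold in every alternative run. Without mTEC-III replicate 1 the change was -0.16. Rspo1 was low, with 22.4 and 41.1 from mTEC-I, 44.8 and 35.5 from mTEC-II, 16.4 and 22.96 from mTEC-III, and 17.04 and 17.3 from mTEC-IV, and no single population was called. In mTEC-IV all 6 tuft genes and 5 of 7 endothelial genes with peaks were called higher, Pecam1 and Kdr not among the latter, and Ptprc was high as well. Their part in the Lgr5 and Lgr4 levels was not tested.

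Among the secreted inhibitors, all 8 genes passed the F test, though Dkk3 gave adjusted p = 0.0723 without mTEC-III replicate 1, Dkk2 adjusted p = 0.0928 with peaks within 20 kb alone and Sfrp5 adjusted p = 0.0581 without mTEC-II replicate 1 and adjusted p = 0.0711 without mTEC-II replicate 2. Over all genes 54.2% passed the F test. Of these inhibitors none was higher and 6 were lower in mTEC-III, in mTEC-I 5 were higher and 2 lower, in mTEC-II 3 and none, and in mTEC-IV 2 and 2. Of the 6 lower in mTEC-III, Dkk4 and Sfrp2 held in every alternative run, and Dkk2, Dkk3, Sfrp4 and Sfrp5 did not. Dkk1, which blocks Lrp co-receptors, had 40.2 and 11.8 from mTEC-I, 111 and 132 from mTEC-II, 64.98 and 70.7 from mTEC-III, and 75.3 and 83.04 from mTEC-IV. The mTEC-I libraries lay below the rest, the second one under its floor of 17.6, and those of mTEC-II above. The change was -1.93 ± 0.30 (SE, limma adjusted p = 1.44e-04) in mTEC-I and 1.28 ± 0.30 (SE, limma adjusted p = 0.00776) in mTEC-II. For the first, the alternatives gave a change of -3.41 and adjusted p = 0.00317 with peaks within 20 kb alone and a change of -1.09 and adjusted p = 1.41e-05 without mTEC-I replicate 2. The second was lost with adjusted p = 0.311 with peaks within 20 kb alone, adjusted p = 0.0656 without mTEC-II replicate 1 and adjusted p = 0.134 without mTEC-II replicate 2. An intronic peak of Prkg1 -73.8 kb from the Dkk1 start had 8.51 and 11.8 from mTEC-I, 52.2 and 67.01 from mTEC-II, 11.99 and 23.6 from mTEC-III, and 9.90 and 8.36 from mTEC-IV, with mTEC-II above the rest. The peak over the start had 31.7 and 0 from mTEC-I, 58.4 and 65.2 from mTEC-II, 52.99 and 47.1 from mTEC-III, and 65.4 and 74.7 from mTEC-IV, with both mTEC-I libraries lowest.

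Dkk2, a relative of Dkk1, had 259 and 258 from mTEC-I, 341 and 344 from mTEC-II, 240.3 and 277 from mTEC-III, and 341 and 391 from mTEC-IV. The libraries of mTEC-I and mTEC-III overlapped at the low end and those of mTEC-II and mTEC-IV at the high end. The change in mTEC-I was -0.30 ± 0.09 (SE, limma adjusted p = 0.0143) and was lost with adjusted p = 0.0828 with library weights and adjusted p = 0.0742 with peaks within 20 kb alone. In mTEC-IV it was 0.36 ± 0.09 (SE, limma adjusted p = 0.00385) and in mTEC-III -0.30 ± 0.09 (SE, limma adjusted p = 0.0143). With peaks within 20 kb alone these changes were 0.09 (limma adjusted p = 0.672) and -0.08 (limma adjusted p = 0.669). Sfrp1, a soluble binder of Wnt ligands, had 471 and 476 from mTEC-I, 423 and 423 from mTEC-II, 352 and 325 from mTEC-III, and 272 and 298 from mTEC-IV. Its levels fell from mTEC-I to mTEC-IV with no overlap between populations. The change was 0.46 ± 0.07 (SE, limma adjusted p = 1.88e-04) in mTEC-I and -0.52 ± 0.07 (SE, limma adjusted p = 4.84e-05) in mTEC-IV. Sfrp5 was low everywhere, with 22.4 and 17.6 from mTEC-I, 49.96 and 52.6 from mTEC-II, 17.03 and 11.8 from mTEC-III, and 29.7 and 20.3 from mTEC-IV. Only mTEC-II stood above the rest, by 1.38 ± 0.30 (SE, limma adjusted p = 0.00422), a call lost with adjusted p = 0.0998 without mTEC-II replicate 1 and adjusted p = 0.118 without mTEC-II replicate 2. Sfrp4, with 39.5 and 35.2 from mTEC-I, 32.8 and 31.8 from mTEC-II, 9.46 and 10.6 from mTEC-III, and 14.3 and 7.17 from mTEC-IV, separated mTEC-I and mTEC-II from the other populations without overlap. Sfrp2, with 297 and 247 from mTEC-I, 193 and 182 from mTEC-II, 156 and 165 from mTEC-III, and 245 and 293 from mTEC-IV, put mTEC-I and mTEC-IV above the other populations. Dkk4 had 82.8 and 82.2 from mTEC-I, 81.4 and 72.9 from mTEC-II, 23.3 and 43.6 from mTEC-III, and 57.2 and 68.1 from mTEC-IV, and Dkk3 had 78.9 and 38.2 from mTEC-I, 35.7 and 37.8 from mTEC-II, 18.3 and 22.96 from mTEC-III, and 24.7 and 27.5 from mTEC-IV, the mTEC-III libraries being lowest in both.

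Axin1 and Axin2, scaffolds of the complex that destroys beta-catenin, did not pass the F test. Axin2, also a widely used readout of canonical signalling, had 618 and 517 from mTEC-I, 652 and 657 from mTEC-II, 648 and 626 from mTEC-III, and 582 and 600.4 from mTEC-IV, with a ratio of the highest to the lowest mean of 1.15 and a limma adjusted p = 0.13 in the F test. That call appeared with RLE size factors, with equal totals in peaks, in edgeR with TMM and without mTEC-I replicate 1. Of its 6 peaks, the one over the start carried most of the signal and the intergenic one -22 kb away was near the floor in mTEC-IV, with 40.2 and 38.2 from mTEC-I, 47.7 and 49.98 from mTEC-II, 44.8 and 32.97 from mTEC-III, and 4.40 and 5.97 from mTEC-IV. The mTEC-IV change of that peak was -2.81 ± 0.26 (SE, limma adjusted p = 1.16e-05).

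The TCF and LEF factors, which carry beta-catenin to DNA, were 4 genes with 22 peaks. Lef1 had 677 and 605 from mTEC-I, 564 and 622 from mTEC-II, 345 and 356 from mTEC-III, and 777 and 728 from mTEC-IV. The mTEC-III libraries lay below all others and those of mTEC-IV above. The change was -0.91 ± 0.07 (SE, limma adjusted p = 2.90e-07) in mTEC-III and 0.56 ± 0.07 (SE, limma adjusted p = 1.03e-05) in mTEC-IV. It was 0.25 ± 0.07 (SE, limma adjusted p = 0.0109) in mTEC-I, where the alternatives gave adjusted p = 0.0608 with library weights, a change of 0.38 and adjusted p = 0.00205 with peaks within 20 kb alone and adjusted p = 0.0852 without mTEC-I replicate 1. The peak over the start at chr3:130812139-130816744, annotated to an exon, had 379 and 344 from mTEC-I, 289 and 296 from mTEC-II, 180.4 and 179 from mTEC-III, and 367 and 364 from mTEC-IV, and its mTEC-III change was -0.91 ± 0.08 (SE, limma adjusted p = 2.13e-05). The intronic peak 26.8 kb from the start stood out in mTEC-IV, with 35.6 and 23.5 from mTEC-I, 42.8 and 56.3 from mTEC-II, 39.7 and 47.1 from mTEC-III, and 120.4 and 115 from mTEC-IV. In each of the 7 Lef1 peaks mTEC-III had the lowest or next to lowest mean.

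Tcf7, the factor also known as TCF1, had 232 and 149.8 from mTEC-I, 392 and 376 from mTEC-II, 270.0 and 276 from mTEC-III, and 286 and 292 from mTEC-IV. The mTEC-II libraries were highest and the mTEC-I libraries lowest. The change was 0.65 ± 0.12 (SE, limma adjusted p = 0.00173) in mTEC-II, lost with adjusted p = 0.0514 without mTEC-II replicate 1, and -0.74 ± 0.12 (SE, limma adjusted p = 2.40e-04) in mTEC-I, with a change of -0.42 and adjusted p = 7.29e-04 without mTEC-I replicate 2. The peak over the start did not pass the F test, with 173 and 91.1 from mTEC-I, 165 and 163 from mTEC-II, 165 and 163 from mTEC-III, and 151 and 154 from mTEC-IV. An intergenic peak at chr11:52106451-52107901, -10.7 kb from the start, had 1.55 and 0 from mTEC-I, 52.9 and 59.6 from mTEC-II, 16.4 and 18.8 from mTEC-III, and 3.85 and 5.97 from mTEC-IV. It was under the floor of 3 tags in both mTEC-I libraries, near it in mTEC-IV and well above it in mTEC-II. Its mTEC-II change was 3.36 ± 0.49 (SE, limma adjusted p = 0.00128), with a change of 2.01 and adjusted p = 3.78e-06 with pseudocount 10, adjusted p = 0.0656 without mTEC-II replicate 1 and adjusted p = 0.0787 without mTEC-II replicate 2. Tcf7 is also a gene of T cells. Of the thymocyte genes, 10 of 13 had no peak in the table used here, and none of the other 3 was called higher in mTEC-II. Bcl11b had 992 and 1013 there, against 795 to 1031 in the other libraries, and Cd2 had 40.6 and 58.1, against 20.02 to 64.6. Themis had 59.04 and 54.8 there, and 18.57 and 5.88 from mTEC-I, the latter under that library's floor of 17.6. Like Tcf7 it was called lower in mTEC-I, by -2.84 ± 0.29 (SE, limma adjusted p = 2.30e-06), and unlike Tcf7 it was called higher in mTEC-IV. Cd2 was instead called higher in mTEC-I, and Bcl11b was not called there. The part of these thymocyte genes in the Tcf7 level was not tested.

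Tcf7l2, a factor well known from gut epithelium, had 564 and 623 from mTEC-I, 560.0 and 591 from mTEC-II, 548 and 601 from mTEC-III, and 747 and 824 from mTEC-IV, and the mTEC-IV libraries lay above the rest. The change in mTEC-IV was 0.43 ± 0.07 (SE, limma adjusted p = 1.17e-04). The alternatives gave a change of 0.23 and adjusted p = 0.0326 with peaks within 20 kb alone. The peak near the first start, with 349 and 335 from mTEC-I, 318 and 364 from mTEC-II, 399 and 425 from mTEC-III, and 379.9 and 415 from mTEC-IV, put mTEC-III and mTEC-IV together at the high end. The intronic peaks 26.8, 51.3 and 73.2 kb from it were instead highest in mTEC-IV alone. The nearest of these had 18.6 and 11.8 from mTEC-I, 46.7 and 37.02 from mTEC-II, 23.97 and 17.7 from mTEC-III, and 83.6 and 111 from mTEC-IV. Tcf7l1 did not pass the F test.

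**Figure D2:**
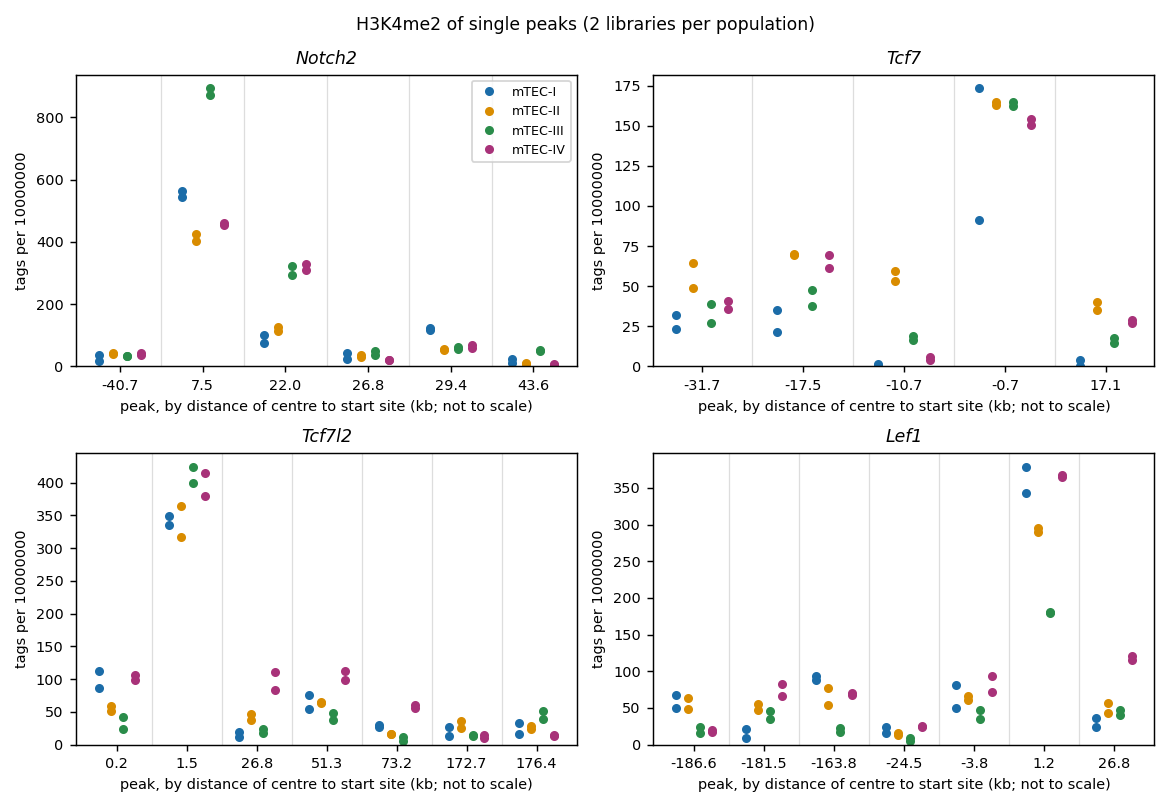
H3K4me2 in tags per 10000000 is plotted for each peak of Notch2, Tcf7, Tcf7l2 and Lef1, ordered by the distance of its centre to the nearest annotated start, with both libraries of each population as points. The peak of Tcf7 over its start is level apart from 1 mTEC-I library, while the one at -10.7 kb is high in mTEC-II alone, and the Notch2 peaks at 7.5 and 22 kb put mTEC-IV at different ranks.

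The Notch receptors with a peak, 3 genes with 11 peaks, all passed the F test, against 54.2% of all genes. In each of them mTEC-III had the highest mean. Notch2 had 862 and 814 from mTEC-I, 655 and 679.8 from mTEC-II, 1392 and 1361 from mTEC-III, and 914 and 893 from mTEC-IV. The mTEC-III libraries lay above all others and the mTEC-II libraries below. The change was 0.79 ± 0.05 (SE, limma adjusted p = 1.09e-07) in mTEC-III and -0.60 ± 0.05 (SE, limma adjusted p = 3.42e-06) in mTEC-II, and both held in every alternative run. The mTEC-I change of -0.17 ± 0.05 (SE, limma adjusted p = 0.0217) did not: it gave adjusted p = 0.137 with library weights, a change of 0.01 and adjusted p = 0.939 with peaks within 20 kb alone, adjusted p = 0.15 without mTEC-I replicate 2, adjusted p = 0.0727 without mTEC-II replicate 2 and adjusted p = 0.0552 without mTEC-IV replicate 1.

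Notch2 had 6 peaks with different orders. The widest, at chr3:97816154-97833672 over the start and into an intron, had 543 and 564 from mTEC-I, 403 and 424 from mTEC-II, 871 and 893 from mTEC-III, and 455 and 461 from mTEC-IV, so that mTEC-III stood apart by 0.90 ± 0.06 (SE, limma adjusted p = 4.72e-06) and mTEC-II lay lowest by -0.55 ± 0.06 (SE, limma adjusted p = 1.86e-04). The next, chr3:97835864-97843151 in the same gene's introns, had 101 and 73.4 from mTEC-I, 113 and 127 from mTEC-II, 321 and 294 from mTEC-III, and 329 and 310.1 from mTEC-IV. There mTEC-III and mTEC-IV overlapped at the high end, apart from mTEC-I and mTEC-II, and the mTEC-I change was -1.39 ± 0.12 (SE, limma adjusted p = 1.28e-05). Another intronic peak, 29.4 kb from the start, was highest in mTEC-I, with 117 and 123 from mTEC-I, 53.9 and 51.8 from mTEC-II, 63.1 and 54.2 from mTEC-III, and 67.6 and 59.1 from mTEC-IV. The peak 43.6 kb from the start was marked in mTEC-III, with 21.7 and 11.8 from mTEC-I, 9.41 and 6.66 from mTEC-II, 53.6 and 48.9 from mTEC-III, and 7.15 and 2.39 from mTEC-IV.

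Notch3 had 297 and 294 from mTEC-I, 256 and 251 from mTEC-II, 348 and 374 from mTEC-III, and 261 and 280.2 from mTEC-IV. The mTEC-III libraries were highest and those of mTEC-II lowest. The change was 0.40 ± 0.08 (SE, limma adjusted p = 0.0012) in mTEC-III and -0.28 ± 0.08 (SE, limma adjusted p = 0.0244) in mTEC-II, the latter lost with adjusted p = 0.0837 with equal totals in peaks, adjusted p = 0.203 without mTEC-II replicate 1, adjusted p = 0.245 without mTEC-II replicate 2, adjusted p = 0.0504 without mTEC-III replicate 2 and adjusted p = 0.0656 without mTEC-IV replicate 2. Notch1, the receptor that progenitors use to become T cells, had 506 and 588 from mTEC-I, 543 and 593 from mTEC-II, 607 and 565 from mTEC-III, and 409.6 and 457 from mTEC-IV. Both mTEC-IV libraries lay below the rest. The change in mTEC-IV was -0.39 ± 0.08 (SE, limma adjusted p = 8.69e-04), with adjusted p = 0.0501 without mTEC-IV replicate 1. The peak over its start did not pass the F test, with 323 and 341 from mTEC-I, 323 and 344 from mTEC-II, 420.1 and 377 from mTEC-III, and 326 and 381 from mTEC-IV. The intronic peak at chr2:26342562-26347256, 14.4 kb from the start, had 109 and 115 from mTEC-I, 161 and 169.9 from mTEC-II, 112 and 94.8 from mTEC-III, and 48.9 and 47.2 from mTEC-IV. It rose in mTEC-II by 0.999 ± 0.13 (SE, limma adjusted p = 5.38e-04) and was lowest in mTEC-IV.

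The Notch ligands, 5 genes with 9 peaks, had 4 that passed the F test, against 54.2% of all genes. In mTEC-I 3 were higher and none lower, in mTEC-III 1 was higher and 3 lower, and in mTEC-II and mTEC-IV 1 was called each way. The Jagged ligands had opposite orders in mTEC-III. Jag1 had 785 and 823 from mTEC-I, 589 and 584 from mTEC-II, 779 and 818 from mTEC-III, and 604 and 589.7 from mTEC-IV. mTEC-I and mTEC-III overlapped at the high end, and mTEC-II and mTEC-IV lay close together at the low end. The change was 0.30 ± 0.06 (SE, limma adjusted p = 8.09e-04) in mTEC-I, 0.28 ± 0.06 (SE, limma adjusted p = 0.00133) in mTEC-III, -0.31 ± 0.06 (SE, limma adjusted p = 0.00148) in mTEC-II and -0.27 ± 0.06 (SE, limma adjusted p = 0.00134) in mTEC-IV. The mTEC-II call was lost with adjusted p = 0.0504 without mTEC-II replicate 1 and adjusted p = 0.058 without mTEC-II replicate 2. The peak at chr2:136932852-136944674 over the start held most of this signal, with 714 and 714 from mTEC-I, 521 and 529 from mTEC-II, 709 and 728 from mTEC-III, and 555 and 531 from mTEC-IV. Its mTEC-II change was -0.31 ± 0.05 (SE, limma adjusted p = 0.00327), with adjusted p = 0.0975 without mTEC-II replicate 1 and adjusted p = 0.0786 without mTEC-II replicate 2.

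Jag2 had 210.5 and 206 from mTEC-I, 149.9 and 149.9 from mTEC-II, 75.7 and 75.4 from mTEC-III, and 210.0 and 203 from mTEC-IV. The mTEC-III libraries were far below all others, mTEC-II was intermediate, and mTEC-I and mTEC-IV overlapped at the high end. The change was -1.29 ± 0.11 (SE, limma adjusted p = 5.49e-07) in mTEC-III, 0.64 ± 0.11 (SE, limma adjusted p = 2.22e-04) in mTEC-I and 0.63 ± 0.11 (SE, limma adjusted p = 2.27e-04) in mTEC-IV, and each held in every alternative run. Its peaks put mTEC-I and mTEC-IV in different orders. Over the start, at chr12:114166063-114168924, the levels were 183 and 188 from mTEC-I, 128 and 127 from mTEC-II, 67.5 and 68.9 from mTEC-III, and 138 and 135 from mTEC-IV. In the intergenic peak -3.35 kb from the start, at chr12:114170310-114171796, they were 27.1 and 17.6 from mTEC-I, 21.4 and 22.6 from mTEC-II, 8.20 and 6.48 from mTEC-III, and 72.03 and 67.5 from mTEC-IV, and mTEC-IV alone was high, by 2.11 ± 0.29 (SE, limma adjusted p = 1.51e-04). The 87.2% of G and C in the Jag2 window was the highest of the 6 windows shown.

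Dll4, the epithelial ligand for T cell progenitors, had 1 peak over its start, with 464 and 373 from mTEC-I, 473 and 449.8 from mTEC-II, 341 and 344 from mTEC-III, and 406 and 452 from mTEC-IV. The mTEC-III libraries lay below all others, by -0.34 ± 0.09 (SE, limma adjusted p = 0.00611). This call was lost with adjusted p = 0.0798 without mTEC-III replicate 1 and adjusted p = 0.0577 without mTEC-III replicate 2. Dll3, an atypical ligand that inhibits Notch in its own cell, had 137 and 88.1 from mTEC-I, 91.8 and 101 from mTEC-II, 22.7 and 27.1 from mTEC-III, and 51.1 and 90.8 from mTEC-IV. The mTEC-III libraries lay below all others, by -1.81 ± 0.22 (SE, limma adjusted p = 2.39e-05), and the mTEC-IV libraries lay far apart from each other. Dll1 did not pass the F test (limma adjusted p = 0.139), with 420.2 and 358 from mTEC-I, 377 and 363 from mTEC-II, 379 and 430.4 from mTEC-III, and 453 and 436 from mTEC-IV.

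**Figure D3:**
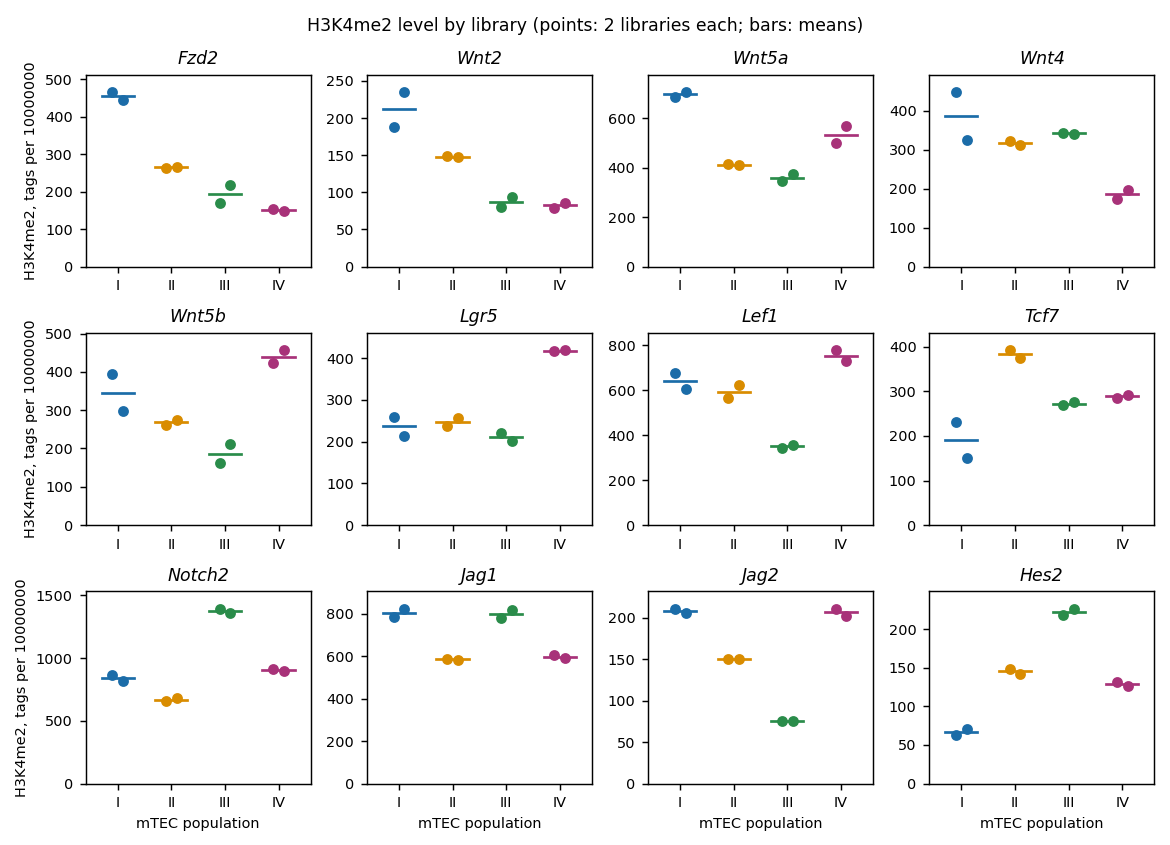
The summed H3K4me2 level in tags per 10000000 is shown for 12 genes, with a point for each of the 2 libraries per population and a bar at their mean, on axes that start at 0. Notch2 and Hes2 are highest in mTEC-III, where Jag2 and Lef1 are lowest; Lgr5 and Wnt5b are highest in mTEC-IV, where Wnt4 is lowest.

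The Hes and Hey factors, a family of repressors of which only some are targets of Notch, were 9 genes with 18 peaks. Of these genes 5 passed the F test, a share close to the 54.2% of all genes. In mTEC-I 3 were higher and 1 lower, in mTEC-II none higher and 2 lower, and in mTEC-III and mTEC-IV 1 was called each way. Hes2 had 63.5 and 70.5 from mTEC-I, 148 and 142 from mTEC-II, 218 and 226 from mTEC-III, and 132 and 127 from mTEC-IV. Its populations did not overlap, with mTEC-III highest and mTEC-I lowest. The change was 1.03 ± 0.12 (SE, limma adjusted p = 9.64e-06) in mTEC-III and -1.25 ± 0.12 (SE, limma adjusted p = 7.94e-07) in mTEC-I, and both held in every alternative run. The peak at chr4:151531662-151534838, annotated to the 5' UTR and lying over the start, had 44.9 and 58.8 from mTEC-I, 118 and 108 from mTEC-II, 186 and 169.6 from mTEC-III, and 112 and 102 from mTEC-IV.

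Hes1, the best known Notch target of the family, had 1 wide peak, with 690.2 and 676 from mTEC-I, 583 and 574 from mTEC-II, 633 and 692 from mTEC-III, and 698 and 612 from mTEC-IV. The mTEC-II libraries lay below the rest by a small margin, with a change of -0.20 ± 0.07 (SE, limma adjusted p = 0.0403), and the F test gave a limma adjusted p = 0.0753. Among the alternatives for mTEC-II were adjusted p = 0.0757 with RLE size factors, a change of -0.12 and adjusted p = 0.192 with equal totals in peaks, a change of -0.12 and adjusted p = 0.0755 in edgeR with TMM, adjusted p = 0.254 without mTEC-II replicate 1, adjusted p = 0.296 without mTEC-II replicate 2, adjusted p = 0.0764 without mTEC-III replicate 2 and adjusted p = 0.106 without mTEC-IV replicate 1. Hes6, which opposes Hes1, had 245 and 214 from mTEC-I, 212 and 238 from mTEC-II, 204 and 246 from mTEC-III, and 257 and 232 from mTEC-IV, with an adjusted p = 0.771. Hey1, a Notch target of vessels and other tissues, had 999 and 1093 from mTEC-I, 807 and 788 from mTEC-II, 769.6 and 864 from mTEC-III, and 683 and 700.2 from mTEC-IV. The mTEC-I libraries lay above all others and those of mTEC-IV below. The change was 0.45 ± 0.06 (SE, limma adjusted p = 3.58e-05) in mTEC-I and -0.35 ± 0.06 (SE, limma adjusted p = 3.18e-04) in mTEC-IV. All 4 of its peaks were called higher in mTEC-I. Its relatives Hey2 and Heyl were also called higher in mTEC-I, with 302 and 344 from mTEC-I, 232 and 248 from mTEC-II, 231 and 248 from mTEC-III, and 244 and 266 from mTEC-IV for Hey2. Heyl had 193 and 203 from mTEC-I, 143 and 128 from mTEC-II, 167 and 192 from mTEC-III, and 135 and 149 from mTEC-IV, and its mTEC-I call was lost with an adjusted p = 0.0864 with library weights.

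Hes5, whose promoter holds the RBPJ matches shown above, had 193 and 159 from mTEC-I, 235 and 237 from mTEC-II, 136 and 173 from mTEC-III, and 266 and 268 from mTEC-IV. mTEC-IV was highest, and mTEC-III overlapped mTEC-I at the low end. The change was 0.53 ± 0.11 (SE, limma adjusted p = 0.00156) in mTEC-IV and -0.53 ± 0.11 (SE, limma adjusted p = 0.0018) in mTEC-III, the latter lost with adjusted p = 0.0885 without mTEC-III replicate 1. In its peak over the start, at chr4:154333621-154336202, the levels were 144 and 123 from mTEC-I, 138 and 138 from mTEC-II, 84.5 and 101 from mTEC-III, and 216 and 219 from mTEC-IV. An intergenic peak -11.8 kb from the start was instead high in mTEC-II alone, with 6.96 and 11.8 from mTEC-I, 36.3 and 28.9 from mTEC-II, 10.1 and 13.5 from mTEC-III, and 6.05 and 1.19 from mTEC-IV. Hes3 and Hes7 did not pass the F test.

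Levels per kb of peak differed between genes. Averaged over a population's 2 libraries, Fzd4 had 85.9 to 111 tags per 10000000 per kb, depending on the population, and Hes1 66.7 to 78.8. Sfrp5 had 10.1 to 36.1 per kb and Sfrp4 9.84 to 36.7.

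The median distance of the 164 peaks to a start site was 8.38 kb, against 4.62 kb over all peaks, and their median width 1964.5 bases, against 2141 bases, with neither difference tested. By the authors' annotation 69 were intronic, 57 intergenic, 18 at promoters, 15 exonic, 4 in a 5' UTR and 1 at a transcript end. A CpG island was named for 22 of them, 13.4%, against 6.92% of all peaks. A peak covered a start site in 59 of the 65 genes. Of the 107 peaks inside an annotated transcript, 96 lay in the gene they were assigned to and 11 in another gene, such as the Fzd1 peaks in Cdk14 and the Dkk1 peak in Prkg1. The authors' peak lists of single populations overlapped 33 of the 164 peaks in mTEC-I, 138 in mTEC-II, 100 in mTEC-III and 114 in mTEC-IV, and 31 peaks were in all 4 lists. These are 20.1%, 84.1%, 61%, 69.5% and 18.9% of the member peaks, against 23.4%, 80.2%, 64.5%, 75.5% and 22.9% of all peaks. In the authors' deposited lists the median fold over control of these peaks was 24.3, 16.8, 17 and 14.9, in that order, and lists of different lengths cannot be compared by it.

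Peak by peak, 109 of the 164 passed the F test, against 58.2% of all peaks. In mTEC-I 43 were higher and 28 lower, against 14.7% and 23.1%. In mTEC-II 22 were higher and 9 lower, against 10.2% and 7.23%. In mTEC-III 16 were higher and 43 lower, against 11.3% and 14.2%. In mTEC-IV 32 were higher and 34 lower, against 23.5% and 14.3%. These counts moved with single libraries too. In mTEC-II they were 2 higher and 1 lower without its replicate 1, 2 and 3 without its replicate 2, 49 and 20 without mTEC-I replicate 1, and 41 and 24 without mTEC-I replicate 2. They were also 13 higher without mTEC-III replicate 1 and 5 lower without mTEC-IV replicate 1. In mTEC-III they were 5 higher and 16 lower without its replicate 1, 6 higher without its replicate 2, 34 higher without mTEC-I replicate 1 and 27 higher without mTEC-I replicate 2. In mTEC-IV they were 14 higher and 20 lower without its replicate 2.

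Near start sites the share of members called was above that of all peaks, and far from them below. Within 5 kb of a start, 48 of 70 member peaks passed the F test, 68.6%, against 45% of all peaks there. From 5 to 20 kb they were 23 of 33, 69.7%, against 69.4%. Over 20 kb they were 38 of 61, 62.3%, against 72.9%. The median range between the highest and lowest population, on the log2(mean level + 1) scale, was 0.84 within 5 kb for member peaks and 0.44 for all peaks. Over 20 kb it was 1.17 and 1.49. These shares were not tested against each other. Of the 42 genes with 2 or more peaks, 31 had peaks that were highest in different populations, 73.8%, against 76.5% of all 6535 such genes. In 13 of the 42, or 31.0%, peaks were called in opposite directions in the same population, as for Tcf7l2, Lef1, Notch2 and Wnt5b, against 25% of all such genes. The members here had a median of 3 peaks and all such genes 2. Peaks described here beyond the 2 of smallest p in each direction and population, with both libraries outside the range of the 6 others, were chosen after their values were seen.

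**Figure D4:**
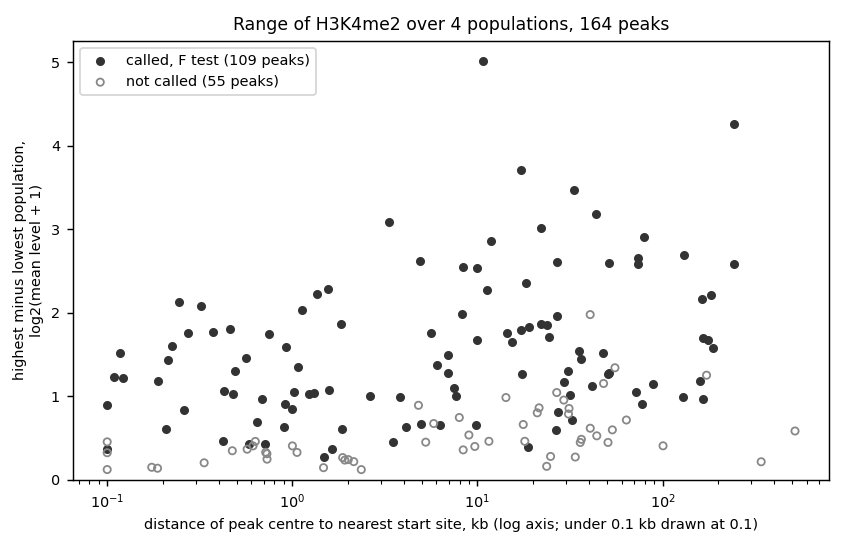
Each of the 164 peaks is placed by the distance of its centre to the nearest start (log axis, kb) and by the difference between its highest and lowest population mean on the log2(level + 1) scale; filled points are the 109 that passed the F test and open points the 55 that did not. Ranges above 2 occur both within 5 kb and beyond, and the peaks within 5 kb have the lower median, 0.84 against 1.17 over 20 kb.

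Beyond the members, 47 of 50 other Wnt pathway genes and 33 of 37 other Notch pathway genes had peaks. Apc2, Gsk3b and Ndp of the former and Ncstn, Psenen, Pofut1 and Dner of the latter had none in the table used here. Of the Wnt genes, mTEC-I had 14 higher and 4 lower, mTEC-II 2 higher and 3 lower, mTEC-III 5 higher and 12 lower, and mTEC-IV 6 higher and 8 lower. Of the Notch genes, mTEC-I had 4 higher and 7 lower, mTEC-II 3 higher and 3 lower, mTEC-III 6 higher and 4 lower, and mTEC-IV 7 higher and 5 lower. Over all genes mTEC-I had 17.2% higher and 17.7% lower, mTEC-II 8.56% higher and 11.2% lower, mTEC-III 12.1% higher and 16.7% lower, and mTEC-IV 20.4% higher and 12.6% lower. As shares of each list, the higher Wnt genes in mTEC-I and the lower ones in mTEC-III were above these, and both directions in mTEC-II were below for the Wnt genes, with no test of these differences. The median change in mTEC-III was -0.10 for the Wnt genes and 0.05 for the Notch genes, against 0.01 over all genes.

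Over both lists together, leaving out single libraries moved these counts. Without either mTEC-II library none was higher in mTEC-II, against 5 with all libraries. Without mTEC-I replicate 1, 11 were higher and 15 lower in mTEC-II, 17 higher in mTEC-III, and 22 higher and 20 lower in mTEC-IV, against 5, 6, 11, 13 and 13. Without mTEC-I replicate 2, 10 were higher and 16 lower in mTEC-II. Without mTEC-II replicate 2, 3 were lower in mTEC-II and 7 higher in mTEC-III, and without mTEC-II replicate 1, 8 were higher in mTEC-IV. In mTEC-III, 10 were lower without its replicate 1, against 16, and 6 higher without its replicate 2. In mTEC-IV, 7 were higher and 6 lower without its replicate 1, and 7 higher and 7 lower without its replicate 2.

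Ror2, a receptor for Wnt5a, had 205 and 182 from mTEC-I, 82.1 and 75.2 from mTEC-II, 75.1 and 77.1 from mTEC-III, and 67.6 and 66.9 from mTEC-IV, and its mTEC-I change was 1.38 ± 0.14 (SE, limma adjusted p = 1.58e-06). The mTEC-I libraries thus stood highest for this receptor as they did for its ligand. Ccnd1, the cyclin D1 gene and a canonical target, had 650.0 and 699 from mTEC-I, 528 and 517 from mTEC-II, 365 and 373 from mTEC-III, and 438 and 454 from mTEC-IV, with changes of 0.61 ± 0.07 (SE, limma adjusted p = 3.37e-06) in mTEC-I and -0.55 ± 0.07 (SE, limma adjusted p = 1.71e-05) in mTEC-III. Nrarp, a Notch target that feeds back on the pathway, had 872 and 790.2 from mTEC-I, 656 and 626 from mTEC-II, 1046 and 1123 from mTEC-III, and 558 and 542 from mTEC-IV, with changes of 0.71 ± 0.06 (SE, limma adjusted p = 7.89e-07) in mTEC-III and -0.60 ± 0.06 (SE, limma adjusted p = 1.25e-06) in mTEC-IV. Neurl1a, a ubiquitin ligase for Notch ligands, had 296 and 223 from mTEC-I, 319.9 and 345 from mTEC-II, 327 and 342 from mTEC-III, and 844 and 917 from mTEC-IV, and was highest in mTEC-IV by 1.52 ± 0.09 (SE, limma adjusted p = 4.63e-09). Csnk1a1, a kinase of the complex that destroys beta-catenin, had 495 and 517 from mTEC-I, 375 and 371 from mTEC-II, 508 and 543 from mTEC-III, and 504 and 474 from mTEC-IV and was lowest in mTEC-II, by -0.44 ± 0.07 (SE, limma adjusted p = 3.19e-04). Tle4, a co-repressor shared by both pathways, had 488 and 470.0 from mTEC-I, 426 and 451 from mTEC-II, 441 and 463 from mTEC-III, and 859 and 861 from mTEC-IV, with a change of 0.91 ± 0.06 (SE, limma adjusted p = 1.71e-08) in mTEC-IV and of -0.38 ± 0.06 (SE, limma adjusted p = 6.21e-04) in mTEC-II. The alternatives for Tle4 gave a change of -0.09 and adjusted p = 0.424 with peaks within 20 kb alone in mTEC-IV.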

How the data were processed

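Per the labels, mouse thymi were digested, cells were sorted by flow cytometry and fixed with formaldehyde, and H3K4me2 chromatin was recovered by a high-throughput form of iChIP. The submitters' processing notes name Picard 1.108, bcl2fastq 2.15.0.4 and the build mm9, but no source used here names an aligner. Per the file headers, HOMER's annotatePeaks gave the signal of each library in the merged peaks, scaled to 10000000 tags, and the nearest gene. The fold over control in the lists of single populations is the authors' own value, per the file headers. The members and gene lists were chosen with earlier results of these data known.

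Signals were summed per gene, 2 mitochondrial peaks were left out, and features with at least 10 in 2 or more libraries were kept. limma-trend (limma 3.58.1, R 4.3.3) was fitted to log2(value + 1) of all 8 libraries, and p-values were adjusted by the Benjamini-Hochberg method over all genes or peaks, with a threshold of 0.05. It was checked on simulated data. Multiplied by the library totals, 100% of values lay within 0.1 of a step of 0.5 tags. edgeR 4.0.16 on these recovered tags, with 2 counts per tag, called 9717 of 15738 genes by the F test, 53 of the 65 members among them. Members given with full statistics were, in each population and direction, the 5 called of smallest p, and a fixed list of well known members. Of the other pathway genes, the 3 of smallest p in each population were named, and 1 of these is not reported here. Floors of 3 tags cover counting error only.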

Additional observations from a re-analysis of the deposited data

How the results depend on the processing

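Of the 103 calls of members in single populations, 103 were kept without the filter, with a pseudocount of 10 and with the replicate block, 101 with RLE size factors, 100 with edgeR, 95 with equal totals in peaks, 94 with library weights and 93 with peaks within 20 kb. Without mTEC-I replicate 1 or 2, 100 and 102 were kept, against 79 and 76 without mTEC-II replicate 1 or 2, 81 and 89 without mTEC-III replicate 1 or 2, and 84 without either mTEC-IV library. Leaving out 1 library leaves its population with 1, which is assumed to vary like the others. In all, 52 calls were kept under every alternative run, 56 without any 1 library and 81 under every other setting.

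Member genes higher in mTEC-II numbered 10, against 18 with RLE size factors, 21 with equal totals, 28 with edgeR and 23 with weights. Those lower in mTEC-II numbered 8, against 3 with equal totals and 17 with weights. Member genes higher and lower in mTEC-I numbered 23 and 6, against 16 and 4 with weights. Those higher in mTEC-III numbered 5, against 8 with edgeR and 8 with weights, and those lower in mTEC-IV 11, against 21 with equal totals. Member peaks higher and lower in mTEC-I numbered 43 and 28, against 24 and 18 with weights. Peaks higher in mTEC-II numbered 22, against 50 with edgeR and 45 with weights. Peaks lower in mTEC-II numbered 9, against 15 with a pseudocount of 10, 5 with equal totals, 17 with edgeR and 25 with weights. Peaks higher in mTEC-III numbered 16, against 29 with edgeR. Other pathway genes higher in mTEC-I numbered 18, against 8 with weights. Those higher in mTEC-II numbered 5, against 10 with RLE size factors, 13 with equal totals, 19 with edgeR and 12 with weights, and those lower there 6, against 18 with weights. In mTEC-IV, 13 were higher, against 7 with equal totals and 8 within 20 kb, and 13 lower, against 23 with equal totals. The shares of all genes called in single populations under these settings are not given. These counts alone therefore do not tell a shift of the members from a shift of all genes. The cause was not tested.

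Without 1 library at a time, member genes lower in mTEC-I ranged from 5 to 11, and those higher and lower from 2 to 22 and 1 to 16 in mTEC-II, 4 to 9 and 14 to 33 in mTEC-III, and 7 to 19 and 8 to 17 in mTEC-IV. Member peaks higher and lower ranged from 2 to 49 and 1 to 24 in mTEC-II, 5 to 34 and 16 to 55 in mTEC-III, and 14 to 47 and 20 to 45 in mTEC-IV. Other pathway genes ranged from 0 to 11 and 3 to 16 in mTEC-II, 6 to 17 and 10 to 23 in mTEC-III, and 7 to 22 and 6 to 20 in mTEC-IV.

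With peaks within 20 kb alone, 3 differences turned: Fzd8 in mTEC-IV at -0.0308 (limma adjusted p = 0.832), Notch2 in mTEC-I at 0.0081 (0.939) and Tle4 in mTEC-IV at -0.0941 (0.424), on the log2 scale. Libraries of the same replicate number did not deviate together (correlations of -0.0125 to 0.0159), so the numbers were not taken as pairs. With the replicate block, 48 member genes passed the F test against 47, and Rspo1 no longer did (limma adjusted p = 0.0511). Having 2 libraries a population limits the precision, and the shallowest libraries carry the most counting error.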
